A study of Mus musculus with 20 samples.

Results

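The miRNAs described here are those known as muscle and nerve miRNAs, counted in mouse liver: every entry of the deposited count files named for miR-1a, miR-133a, miR-133b, miR-133c, miR-9, miR-124, miR-153, miR-204 or miR-219a, with either arm. The rule found 14 entries of 1509 in any file, and 12 of the 880 entries that every file lists. The names were chosen on read counts in these same libraries, in which 8 of the entries, mmu-miR-1a-3p, mmu-miR-133a-3p, mmu-miR-133c, mmu-miR-9-5p, mmu-miR-124-3p, mmu-miR-153-3p, mmu-miR-204-5p and mmu-miR-219a-2-3p, stand out in a liver of the PiZ group. That height is therefore a description and not a test. Small RNA was sequenced from frozen livers of 6-week-old C57BL/6 mice, 5 PiZ and 5 wild-type (WT). The PiZ transgene encodes human alpha-1 antitrypsin in its Z form, a protease inhibitor that hepatocytes make and that misfolds in them. No label gives the sex, and small RNA libraries hold no transgene mRNA by which to check the genotype labels. Both technical runs of a liver were added together, and the mouse is the replicate.

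miRNAs are short RNAs that pair with messenger RNAs, mainly through bases 2 to 8 (the seed), and lower the output of their targets. miR-1 and miR-133a are made from shared precursors in skeletal and heart muscle, where they act in muscle growth and differentiation. miR-9 and miR-124 are known from neural progenitors and neurons, miR-153 from brain and neuroendocrine cells, miR-204 from the eye and the choroid plexus, and miR-219 from oligodendrocytes, the cells that make myelin in the central nervous system. None of these is known as a main miRNA of hepatocytes, whose own miRNA is miR-122.

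The mature sequences, from RefSeq on GRCm38.p6, show how the miRNAs printed here differ in their letters. They were found for 7 of the 14 entries, of which 6 are printed and miR-9-3p, with 1 read, is not. None was found under the names of miR-1a-3p, miR-1a-2-5p, miR-133a-3p, miR-133a-5p, miR-133c, miR-124-3p and miR-219a-2-3p. Whether miR-133a and miR-133c can be told apart is therefore not shown. miR-206-3p and miR-211-5p are added because their counts are set beside the others further on. Capitals mark the seed.
mmu-miR-9-5p: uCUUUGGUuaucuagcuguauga
mmu-miR-153-3p: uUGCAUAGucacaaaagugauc
mmu-miR-204-5p: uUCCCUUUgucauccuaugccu
mmu-miR-211-5p: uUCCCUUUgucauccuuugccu
mmu-miR-219a-5p: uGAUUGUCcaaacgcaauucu
mmu-miR-219a-1-3p: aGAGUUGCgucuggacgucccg
mmu-miR-133b-3p: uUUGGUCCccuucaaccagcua
mmu-miR-206-3p: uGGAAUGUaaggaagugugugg
Only miR-204-5p and miR-211-5p share a seed among these 8, and they differ by A17U, counted from 1 at the 5′ end of miR-204-5p. miR-204-5p lies at chr19:22750610-22750631 on the plus strand, in an intron of Trpm3, a cation channel gene. miR-211-5p lies at chr7:64205831-64205852 on the plus strand, in an intron of the related gene Trpm1. miR-153-3p lies at chr12:117250860-117250881 on the plus strand, in an intron of Ptprn2, which encodes a protein of secretory granules. miR-9-5p is encoded at 3 places, all on the plus strand: chr13:83738821-83738843 in an exon of the long noncoding RNA C130071C03Rik, chr3:88215613-88215635 in an intron of Gm3764, and chr7:79505279-79505301 in an intron of Mir9-3hg. miR-219a-5p comes from a locus at chr17:34025052-34025072 on the minus strand, in an exon of the long noncoding RNA Gm26940, with miR-219a-1-3p as its partner arm at chr17:34025010-34025031. A second copy of miR-219a-5p lies at chr2:29845689-29845709 on the minus strand, in Mir219a-2, which overlaps no other annotated gene and whose partner arm is miR-219a-2-3p. miR-133b-3p at chr1:20682834-20682855 and miR-206-3p at chr1:20679055-20679076, both on the plus strand, lie in exons of the noncoding RNA Gm28653.

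PiZ mouse 4 stood apart from the other 9 libraries in the 8 miRNAs chosen for their height in it, and was also the deepest library. Totals of the summed runs ranged from 2433273 to 10780801 reads in PiZ mice and from 1307857 to 10012788 reads in WT mice. A read was worth 0.0888 CPM (reads scaled to 1000000 per library, by TMM-adjusted library size) in PiZ mouse 4 and 0.710 CPM in WT mouse 1. A count of 0 allows up to 3 reads, which is 0.266 CPM in PiZ mouse 4 and 2.13 CPM in WT mouse 1. Each of the 8 miRNAs was above 2.13 CPM in PiZ mouse 4. In bulk liver RNA, fewer cells of a type and less RNA per cell cannot be told apart. Values that rest on PiZ mouse 4 are given with and without it.

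The muscle miRNAs were led by miR-133c, a close relative of miR-133a. It had 9.01, 5.91, 8.11, 455 and 11.7 CPM in PiZ mice 1 to 5, against 1.42, 2.09, 5.60, 3.49 and 3.91 CPM in WT mice 1 to 5. All 5 PiZ livers lay above all 5 WT livers, but narrowly. PiZ mouse 2 had 15 reads (95% Poisson counting interval 3.31 to 9.75 CPM) and WT mouse 3 had 10 reads (2.69 to 10.3 CPM). The share of all miRNAs that separate the genotypes in this way was not counted, so nothing is read from it. PiZ mouse 4, with 5123 reads, was 38.8 times the next highest mouse. miR-133a-3p, which acts on genes of muscle growth and differentiation, had 1.64, 0, 0.601, 41.3 and 1.56 CPM in PiZ mice 1 to 5, against 2.13, 0.522, 0, 0 and 0.652 CPM in WT mice 1 to 5. Apart from PiZ mouse 4, the genotypes overlapped. miR-1a-3p, an abundant miRNA of heart and skeletal muscle, had 0.819, 0, 0.100, 25.4 and 0.120 CPM in PiZ mice, against 0, 1.04, 0, 0 and 0.109 CPM in WT mice. Of its 293 reads over the 10 mice, 286 came from PiZ mouse 4, and the other 9 livers together gave 7.

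The minor muscle entries followed the same library at very low counts. miR-133a-5p, the other arm of miR-133a, had 4 reads in PiZ mouse 4 and 0 in every other mouse. miR-133b-3p and miR-1a-2-5p are listed only in the shorter of the 2 feature lists that the files hold, which covers PiZ mice 3 to 5 and WT mice 4 and 5. There miR-133b-3p had 14 reads in PiZ mouse 4 against 0.5 in WT mouse 5, and miR-1a-2-5p had 1 read, in PiZ mouse 4. The counts of miR-133a-3p and miR-133b-3p held fractions, 236.5 and 3.5 reads in run 1 of PiZ mouse 4 and 228.5 and 10.5 in run 2. The sources used here do not say how reads that match several miRNAs were shared, so the split among miR-133a, miR-133b and miR-133c is uncertain.

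Among the nerve miRNAs, miR-9-5p, which acts in the formation of neurons, had 0.409, 0, 2.20, 59.6 and 1.79 CPM in PiZ mice 1 to 5, against 0, 1.04, 0.560, 0.758 and 1.09 CPM in WT mice 1 to 5. PiZ mouse 4 held 671 of its 727 reads, and PiZ mice 3 and 5 were the next highest. miR-124-3p, which marks differentiated neurons, had 75 reads (6.66 CPM) in PiZ mouse 4, 1 read in PiZ mouse 5, 2 reads in WT mouse 4 and 0 elsewhere. Its counts outside PiZ mouse 4 lay within the limit that a count of 0 allows. miR-153-3p, known in neurons for targeting synaptic genes, had 27 reads (2.40 CPM) in PiZ mouse 4 and 0 to 1 reads in the other PiZ mice, against 0 to 2 reads in WT mice.

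miR-204-5p gave at least 1 read in most livers. It had 0.819, 0.394, 0.701, 11.0 and 0.120 CPM in PiZ mice 1 to 5, against 0, 0, 0.560, 0.152 and 0.326 CPM in WT mice 1 to 5. Of the mice other than PiZ mouse 4, only PiZ mouse 3, with 7 reads, had more than the 3 reads that a count of 0 allows. Again only PiZ mouse 4 lay clear of the rest. miR-211-5p, which shares its seed, did not stand out there, with 1.69 CPM in PiZ mouse 4 and 0 to 2.30 CPM in the other 9 mice. The other arm of miR-9, miR-9-3p, had 1 read, in PiZ mouse 4.

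The miR-219a arms differed from each other. miR-219a-2-3p had 87 reads (7.73 CPM) in PiZ mouse 4, 0 in the other 4 PiZ mice, 2 in WT mouse 4 and 0 in the other 4 WT mice. miR-219a-5p, its partner arm, had 3.69, 0.394, 1.10, 1.69 and 1.08 CPM in PiZ mice 1 to 5, against 0.710, 2.61, 0, 0.758 and 1.19 CPM in WT mice 1 to 5. miR-219a-1-3p, the partner of the copy on chromosome 17, was found in all 10 mice, with 2.87, 1.18, 1.20, 2.49 and 2.75 CPM in PiZ mice 1 to 5, against 6.39, 1.57, 1.68, 1.67 and 2.71 CPM in WT mice 1 to 5. For these last 2 arms PiZ mouse 4 lay within the range of the other mice and the genotypes overlapped. In reads, PiZ mouse 4 had 87 of miR-219a-2-3p and 19 of miR-219a-5p, while the other 9 mice together had 2 and 52.

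**Figure D1:**
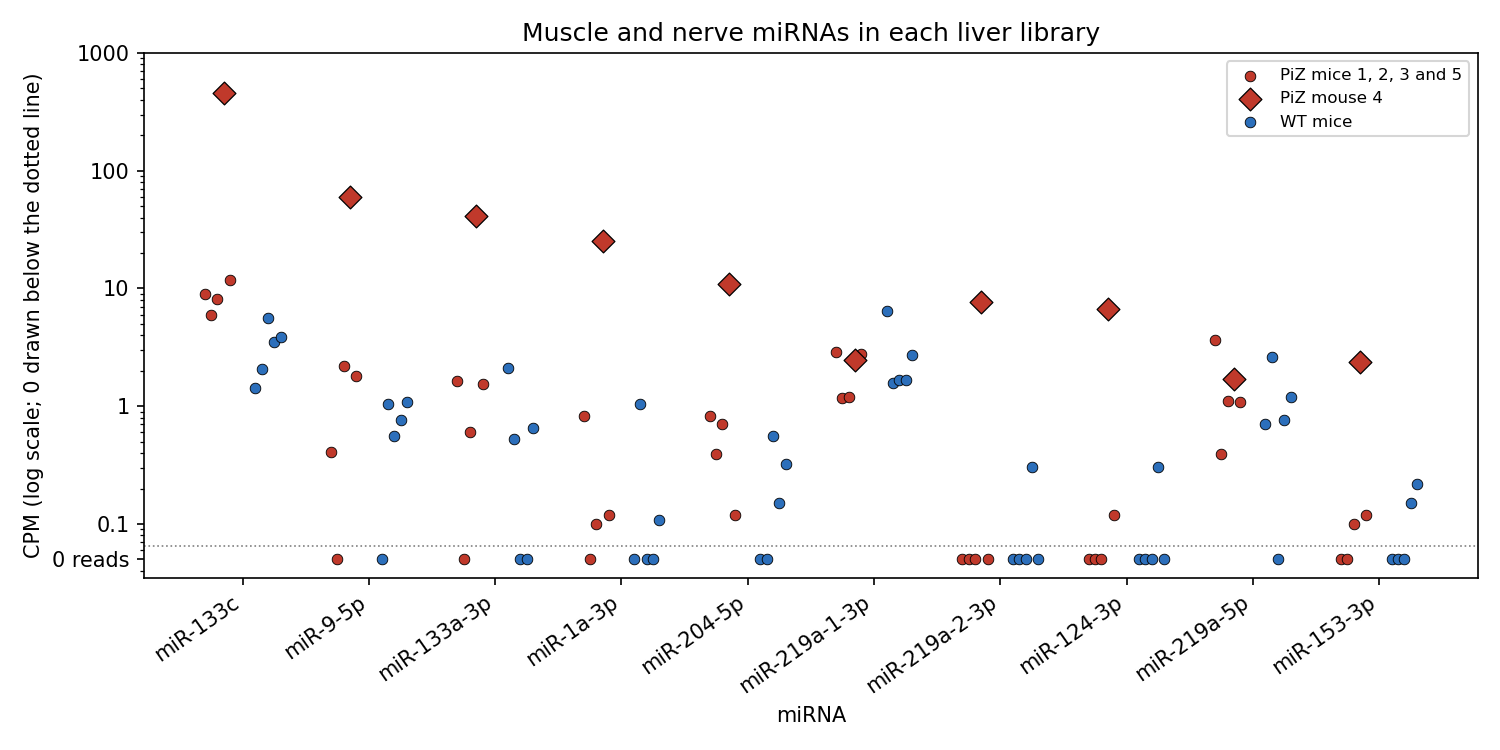
CPM (log scale) of the 10 miRNAs with 20 or more reads over the 10 mice, in PiZ mice (red, left; PiZ mouse 4 as a diamond) and WT mice (blue, right), each point a mouse and values of 0 drawn below the dotted line. PiZ mouse 4 lies above every other mouse for 8 miRNAs, from 2.40 CPM for miR-153-3p to 455 CPM for miR-133c, and within the other mice for miR-219a-1-3p and miR-219a-5p.

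The height of PiZ mouse 4 was set beside all miRNAs by dividing the highest CPM of each by the next highest mouse. Of 485 miRNAs with 20 or more reads, 8 (1.65%) reached 5-fold, and these are the 8 named at the outset. All had PiZ mouse 4 as their highest mouse, and 0 miRNAs reached 5-fold in any other mouse. Because these values chose the names, nothing is read from the count. The ratios ran from 11.0 for miR-153-3p (95% counting interval 2.77 to 95.8, 27 and 2 reads) and 13.4 for miR-204-5p (3.64 to 112, 124 and 2 reads) to 27.0 for miR-9-5p (17.7 to 43.4, 671 and 22 reads) and 38.8 for miR-133c (31.8 to 47.9, 5123 and 98 reads). miR-133a-3p, miR-124-3p, miR-1a-3p and miR-219a-2-3p, whose next highest mice had 2 or 3 reads, lay between, at 19.4 (6.59 to 94.3), 22.0 (5.87 to 185), 24.3 (6.67 to 202) and 25.5 (6.84 to 214). These exact binomial intervals cover counting error only. Just under 5-fold were miR-323-3p, at 4.05 and also highest in PiZ mouse 4, and miR-184-3p, at 4.01 and highest in WT mouse 3. PiZ mouse 4 was the highest mouse for 30 of the 485 miRNAs, PiZ mouse 3 for 85 and WT mouse 1 for 114.

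**Figure D2:**
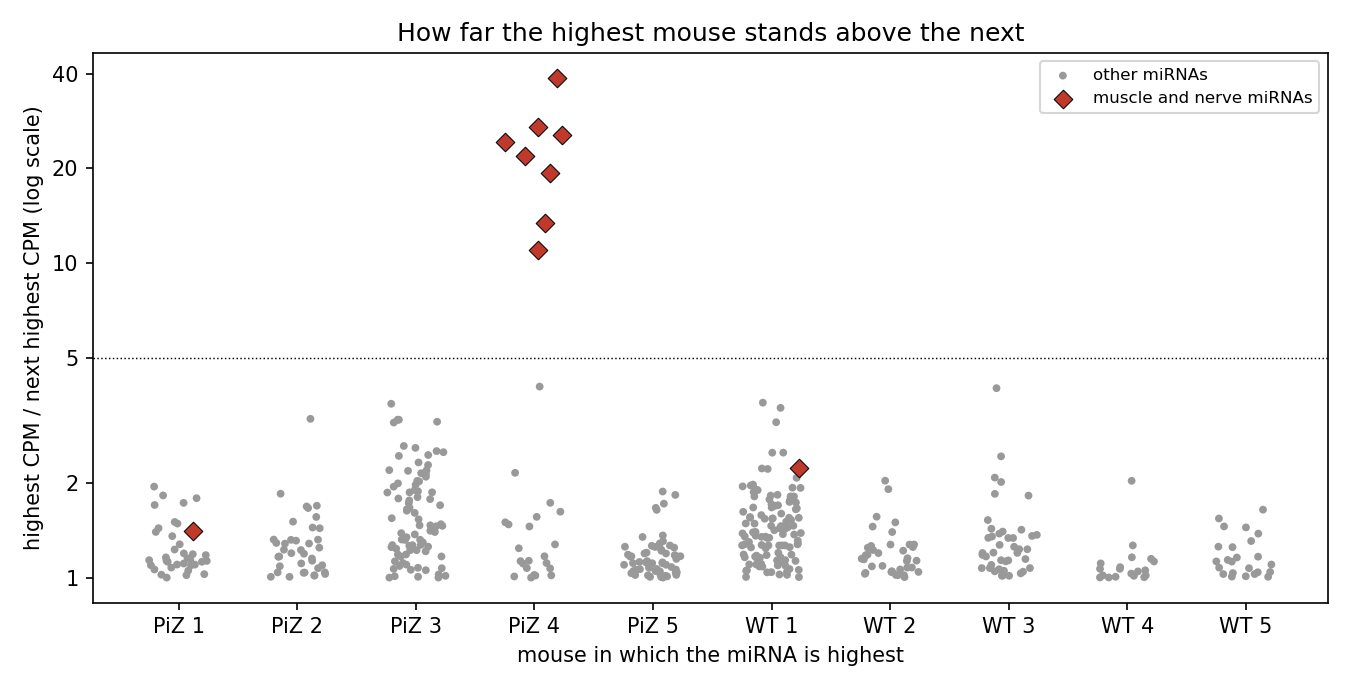
Ratio of the highest to the next highest CPM (log scale) for 485 miRNAs, placed at the mouse in which each is highest, PiZ mice left and WT mice right. Red diamonds are the muscle and nerve miRNAs with 20 or more reads, grey points all others, and the dotted line is 5-fold; the 8 points above it are all at PiZ mouse 4.

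PiZ mouse 4 held 19.03% of all reads of the 10 libraries, and between 84.4% (miR-153-3p) and 97.8% (miR-219a-2-3p) of the reads of the 8 miRNAs. It held 26.8% of the reads of miR-219a-5p and 22.6% of those of miR-219a-1-3p. The reads recurred in both technical runs of the library. Run 1 held 49.6% of its reads, and 50.7% of its miR-133c reads (95% exact binomial interval 49.3 to 52.1), 47.4% of its miR-9-5p reads (43.6 to 51.2) and 47.9% of its miR-1a-3p reads (42.0 to 53.9). miR-124-3p had 37 and 38 reads in the 2 runs and miR-219a-2-3p 42 and 45. The 2 runs share a library, so they show that sequencing repeated and say nothing of the tissue or RNA before it.

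**Figure D3:**
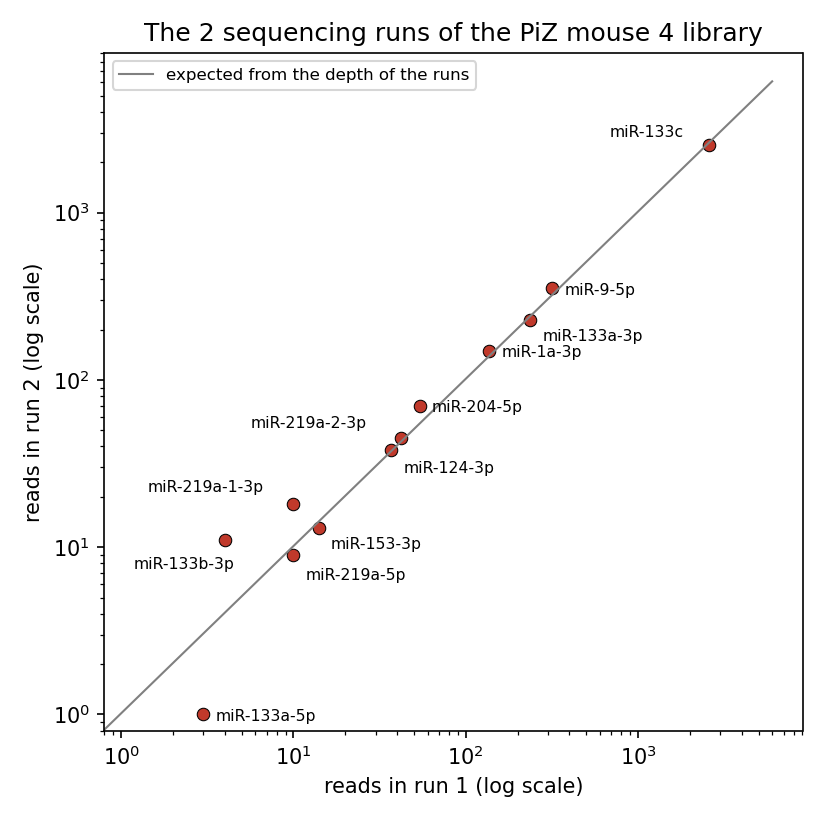
Reads, rounded to whole numbers, of the muscle and nerve miRNAs in run 1 and run 2 (log scales) of the PiZ mouse 4 library; the line is the split of all its reads between the runs. Points with 20 or more reads in a run lie on or close to the line, from miR-124-3p with 37 and 38 reads to miR-133c with 2596 and 2527.

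All the muscle miRNAs summed here were chosen for their height in PiZ mouse 4, so their shares are a description. miR-133c and miR-133a-3p held similar shares in PiZ mouse 4 and elsewhere. How reads were split between these entries is uncertain, as said above, and the intervals below do not cover that. miR-1a-3p held 286 of 5874 reads in PiZ mouse 4, against 7 of 331 reads in the other 9 mice pooled. miR-1a-3p, miR-133a-3p and miR-133c summed to 522 CPM in PiZ mouse 4, to 5.91 to 13.4 CPM in the other PiZ mice and to 3.49 to 5.60 CPM in WT mice. The other PiZ livers also lay above the WT livers, the closest being PiZ mouse 2 with 15 reads and WT mouse 3 with 10 reads. Most of the summed reads are miR-133c, so this repeats the separation seen for it, and nothing is read from it. miR-133c made up 87.2% of that sum in PiZ mouse 4 (95% exact binomial interval 86.3 to 88.1), 88.9% in the other PiZ mice (84.2 to 92.5) and 85.2% in WT mice (76.1 to 91.9). miR-133a-3p made up 7.92% in PiZ mouse 4 (7.24 to 8.64), 9.47% in the other PiZ mice (6.09 to 13.9) and 11.4% in WT mice (5.59 to 19.9). miR-1a-3p made up 4.87% in PiZ mouse 4 (4.33 to 5.45) and 1.65% in the other PiZ mice (0.450 to 4.16), with 3.41% in WT mice (0.709 to 9.64) and 2.11% in the other 9 mice together (0.854 to 4.31). The intervals overlap for miR-133c and miR-133a-3p. For miR-1a-3p those of the other PiZ mice (4 of 243 reads) and of the other 9 mice (7 of 331 reads) end below that of PiZ mouse 4. The interval of the WT mice overlaps it. These intervals pool mice and leave out the spread between them, so no difference between mice is read from them.

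The proportions among the 7 nerve miRNAs with 20 or more reads were not alike in PiZ mouse 4 and the other mice. Of these 7, all but miR-219a-5p and miR-219a-1-3p were chosen for their height in PiZ mouse 4. A lower joint share of both these arms there follows from that choice, so the shares are a description. For the same reason the nerve shares are not set against the muscle shares. They summed to 91.5 CPM in PiZ mouse 4, to 1.97 to 7.78 CPM in the other PiZ mice and to 2.80 to 7.10 CPM in WT mice, so without PiZ mouse 4 the genotypes overlapped. miR-9-5p made up 65.1% in PiZ mouse 4 (62.1 to 68.0), 29.9% in the other PiZ mice (22.1 to 38.7) and 17.5% in WT mice (10.7 to 26.2). miR-219a-1-3p made up 2.72% in PiZ mouse 4 (1.81 to 3.90), 35.4% in the other PiZ mice (27.2 to 44.4) and 49.5% in WT mice (39.5 to 59.5). miR-219a-2-3p made up 8.44% in PiZ mouse 4 (6.81 to 10.3), 0 of 127 reads in the other PiZ mice, and 1.94% in WT mice (0.236 to 6.84). The mice within a group were pooled for these shares, and their intervals leave out the spread between mice.

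**Figure D4:**
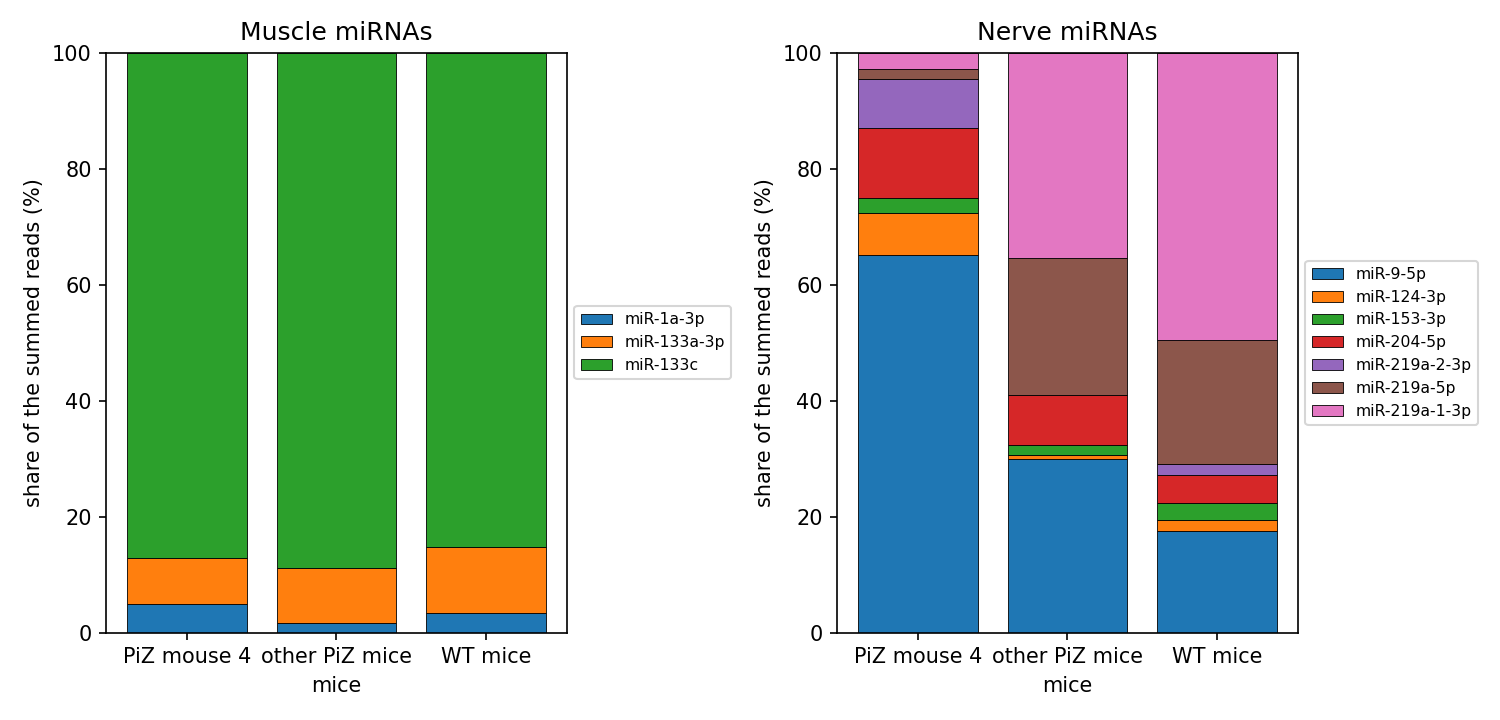
Shares (%) of each miRNA in the summed reads of the muscle miRNAs (left panel) and the nerve miRNAs (right panel). Bars are PiZ mouse 4, the other 4 PiZ mice pooled and the 5 WT mice pooled. The split of reads between miR-133c and miR-133a-3p is uncertain. miR-133c makes up 87.2%, 88.9% and 85.2% of the muscle bars, while miR-9-5p makes up 65.1%, 29.9% and 17.5% of the nerve bars and the 2 arms miR-219a-5p and miR-219a-1-3p most of the rest outside PiZ mouse 4.

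Other markers of muscle and nerve were counted to check the name of the group. miR-206-3p, found in skeletal muscle and hardly in heart, had 7 reads (0.622 CPM) in PiZ mouse 4 and 0 in every other mouse. In PiZ mice 1 and 2 and WT mice 1 to 3 a count of 0 allows 1.18 to 2.13 CPM, so it cannot show absence at that level. The heart markers miR-208b-3p and miR-499-5p had 1 and 3 reads in PiZ mouse 4, and up to 0.819 and 1.57 CPM in other mice, so neither was raised there. For miR-208a-3p no entry of that name was found. Of 13 neuron markers that all files list, which summed to 175 CPM in PiZ mouse 4, 110 to 156 CPM in the other PiZ mice and 99.2 to 142 CPM in WT mice, 3 were highest in PiZ mouse 4. Over the miRNAs with 20 or more reads that mouse was highest for the 30 of 485 given above. These 30 include the 8 chosen for their height in it. The 485 leave out the neuron markers miR-129-2-3p (12 reads) and miR-488-3p (13 reads). The 3 of 13 markers are therefore not set against the 30 of 485 in PiZ mouse 4. The 3 are named because they are highest there: miR-138-5p at 28.5 CPM against at most 13.2 CPM in another mouse, miR-212-3p at 3.20 against 2.50 CPM and miR-129-2-3p at 0.710 against 0.300 CPM. miR-128-3p and miR-132-3p, those with the most reads, lay within the other mice at 65.4 and 38.4 CPM, and miR-488-3p was at 0 in PiZ mouse 4.

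The oligodendrocyte list, 5 miRNAs in all files that include miR-219a-5p and miR-219a-1-3p, summed to 59.6 CPM in PiZ mouse 4, 46.1 to 59.0 CPM in the other PiZ mice and 42.6 to 57.9 CPM in WT mice. miR-338-3p, which made up most of that sum, was at 55.2 CPM in PiZ mouse 4 and 34.1 to 56.8 CPM elsewhere. The 4 hepatocyte miRNAs summed to 158410 CPM in PiZ mouse 4, within the other PiZ mice (122217 to 250591 CPM) and the WT mice (62339 to 238985 CPM). miR-122-5p was at 10166 CPM in PiZ mouse 4 and 6811 to 14254 CPM elsewhere, and miR-192-5p at 139478 CPM against 41179 to 227611 CPM. In edgeR's test between the genotypes over all miRNAs with 10 or more reads, 23 miRNAs of these lists, miR-211-5p included, were tested. Of them 0 were called, and 2 had an unadjusted p under 0.05, against 116 of all 544 tested (21.3%). These were miR-122-5p (log2 fold change -0.48, SE 0.19, adjusted p = 0.160) and miR-138-5p (1.16, SE 0.53, adjusted p = 0.231). The part of other cell types in the values of PiZ mouse 4 was not tested.

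The comparison of PiZ with WT liver was made with edgeR over all miRNAs with 10 or more reads, of which 33 of 544 (6.07%) passed an adjusted p of 0.05. Of the 10 muscle and nerve miRNAs tested, 0 passed. Of them 3 had an unadjusted p under 0.05, against 116 of all 544 (21.3%). limma-voom also called 0 of the 10, and DESeq2 0 of 4, giving no p for the other 6: miR-133c, miR-133a-3p, miR-1a-3p, miR-9-5p, miR-124-3p and miR-219a-2-3p. With edgeR's stricter filter 31 of 336 miRNAs (9.23%) passed, and of miR-133c and miR-219a-1-3p, the members that filter keeps, 0 did. The 10 had a median log2 fold change of 3.58, and all 544 miRNAs one of 0.10, but the choice of members fixed that direction. In PiZ livers miR-133c averaged 97.9 ± 200 CPM (SD, n = 5), against 3.30 ± 1.64 CPM in WT livers (SD, n = 5), with a log2 fold change of 3.73 (SE 1.46, edgeR adjusted p = 0.158). miR-204-5p had a log2 fold change of 3.42 (SE 1.35, adjusted p = 0.160), miR-9-5p 3.47 (SE 1.57, adjusted p = 0.231) and miR-133a-3p 3.68 (SE 1.80, adjusted p = 0.258).

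For miRNAs with at most 3 reads over all WT mice, a fitted fold depends on the model's prior count, and the ratio of reads per effective library size is given instead. It was 58.5 for miR-1a-3p (95% counting interval 19.8 to 285, 290 PiZ and 3 WT reads), 26.3 for miR-219a-2-3p (7.07 to 221, 87 and 2 reads), 23.0 for miR-124-3p (6.15 to 193, 76 and 2 reads) and 5.85 for miR-153-3p (1.81 to 30.0, 29 and 3 reads). Their adjusted p-values in edgeR lay between 0.235 and 0.489. The counting intervals pool the mice of a genotype and leave out the spread between mice. Of the 290 PiZ reads of miR-1a-3p, 286 came from PiZ mouse 4. Without PiZ mouse 4 the ratio of miR-1a-3p was 1.20 (0.202 to 8.16, 4 PiZ and 3 WT reads). The others then had 0 PiZ and 2 WT reads (miR-219a-2-3p), 1 and 2 reads (miR-124-3p) and 2 and 3 reads (miR-153-3p), too few for a ratio. miR-219a-5p had a log2 fold change of 0.55 (SE 0.66, adjusted p = 0.726) and miR-219a-1-3p one of -0.28 (SE 0.51, adjusted p = 0.844). The calls turned on the filter: with every miRNA of 1 or more reads kept, 84 of 852 were called, 7 of the 12 muscle and nerve entries tested among them. Those 7 were the 8 tall ones without miR-153-3p. They were chosen for their height in PiZ mouse 4, so the 7 of 12 are not set against the 84 of 852. For miR-133c the log2 fold change stayed at 3.73, while its SE went from 1.46 to 0.474. The fit with no term for the feature list called miR-133c alone.

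Without PiZ mouse 4 the large folds were gone. 517 miRNAs were then tested and 27 (5.22%) passed, and of the 6 muscle and nerve miRNAs that still had 10 reads 0 did. At an unadjusted p under 0.05 stood 1 of the 6, against 105 of all 517 (20.3%). That was miR-133c, which averaged 8.69 ± 2.41 CPM in these PiZ livers (SD, n = 4), against 3.30 ± 1.64 CPM in WT livers (SD, n = 5). Its log2 fold change was 1.35 (SE 0.40, unadjusted p = 0.00579 and adjusted p = 0.0809 in edgeR). Each of the other 4 PiZ livers lay above each WT liver, the lowest PiZ value being 5.91 CPM (15 reads) and the highest WT value 5.60 CPM (10 reads). The counting intervals of these values overlap. The share of all miRNAs that separate the genotypes in this way was not counted, so nothing is read from the separation. miR-204-5p then had a log2 fold change of 1.00 (SE 0.89, adjusted p = 0.614), miR-133a-3p 0.90 (SE 1.01, adjusted p = 0.717) and miR-9-5p 0.51 (SE 0.74, adjusted p = 0.806). miR-219a-5p, at 0.45 (SE 0.72, adjusted p = 0.820), and miR-219a-1-3p, at -0.38 (SE 0.56, adjusted p = 0.812), moved little from their values with all mice. The remaining 4 had, over the 9 mice, 7 reads (miR-1a-3p), 5 (miR-153-3p), 3 (miR-124-3p) and 2 (miR-219a-2-3p).

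**Figure D5:**
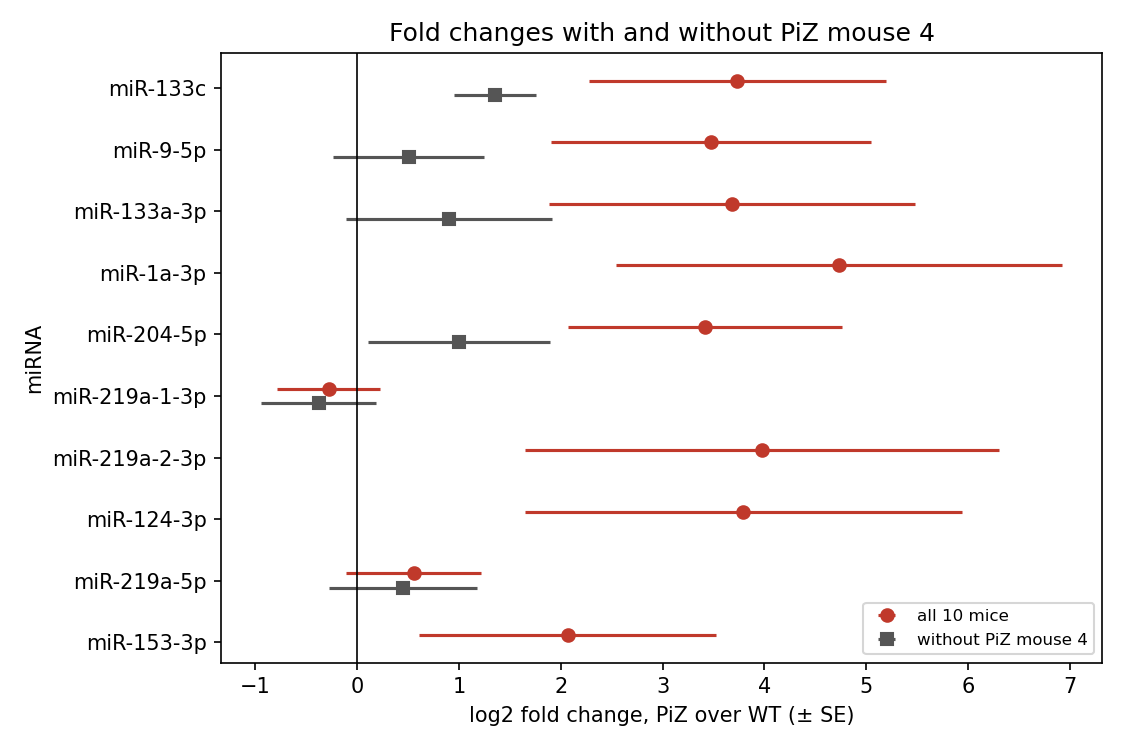
Log2 fold change of PiZ over WT liver with its standard error in edgeR, over all 10 mice (red circles) and without PiZ mouse 4 (grey squares), for the 10 miRNAs tested. miR-133c stands at 3.73 with all mice and 1.35 without PiZ mouse 4; the 4 miRNAs with no square have under 10 reads without that mouse.

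Because the members were chosen for their peak in PiZ mouse 4, likeness of pattern among them follows from the choice and is a description. It was measured over the 10 mice as the root mean square difference of log2 CPM, each miRNA centred on its own mean, among the miRNAs that pass edgeR's stricter filter. That filter keeps miR-133c and miR-219a-1-3p alone of the members. For miR-1a-3p, miR-133a-3p and miR-9-5p the most alike was miR-133c, at 1.09, 1.31 and 0.94. miR-133c itself, miR-204-5p, miR-124-3p and miR-219a-2-3p were most like miR-138-5p, at 1.49, 0.87, 0.91 and 0.97. Members that the filter leaves out lay closer to them: miR-133c was at 0.91 from miR-204-5p and 0.94 from miR-9-5p, miR-204-5p at 0.68 from miR-219a-2-3p, and miR-124-3p at 0.14 from miR-219a-2-3p. miR-335-3p and miR-149-5p, among the 3 most alike for several of these, were also highest in PiZ mouse 4, at 233 and 48.8 CPM. miR-219a-1-3p was instead most like miR-28a-3p (0.40), and miR-219a-5p most like miR-7a-5p (0.65). Library depth is shared by all miRNAs of a mouse and enters these distances, the more so at a few reads.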

How the data were processed

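The deposited files give, per the labels, 2 technical runs for each of 10 livers. Values are estimated counts per mature miRNA as deposited by the authors; 19 to 32 values per file are fractional. The submitters' processing notes name CASAVA; the aligner, miRBase release and build were not given in the sources used here. Runs were summed and rounded. Entries listed in every file were tested with edgeR 4.0.16 (R 4.3.3; TMM, quasi-likelihood F-test with genotype and file set as terms, Benjamini-Hochberg adjustment, threshold 0.05), with a minimum of 10 reads in total or filterByExpr. File set is which of 2 feature lists (1399 or 990 miRNAs) a file holds. SE is the fold change over the square root of F. Alternatives used DESeq2 1.42.0 and limma 3.58.1; intervals used scipy 1.17.1. Sequences and names come from RefSeq on GRCm38.p6, and gene overlaps from GENCODE. The steps were tested on simulated data. Values per mouse are given for entries with 20 or more reads; likeness for those with 50 or more. Of the marker lists, miR-129-2-3p, miR-138-5p, miR-212-3p and miR-488-3p were named after their values were seen. The members, marker lists and tests were chosen with earlier results of these data known.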

Additional observations from a re-analysis of the deposited data

Results flagged for a closer look

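A sample far from the others of its group was found in 9 of 20 groups (10 miRNAs in 2 genotypes of 5 mice), by the gap of the extreme mouse to its neighbour over the group's range, with a critical value of 0.71. Chance gives about 1 in 20 for miRNAs not chosen by their values; most of these were chosen for their height in PiZ mouse 4, so the count is a description and is not set against that share. In PiZ mice the extreme was PiZ mouse 4 each time, with a gap of 1.0 for mmu-miR-219a-2-3p, 0.903 for mmu-miR-124-3p, 0.859 for mmu-miR-153-3p, 0.847 for mmu-miR-133c, 0.722 for mmu-miR-1a-3p and 0.716 for mmu-miR-204-5p, computed on log2 CPM. mmu-miR-9-5p and mmu-miR-133a-3p, also highest in PiZ mouse 4, did not pass. In WT mice the extremes rest on 2 reads each: WT mouse 4 for mmu-miR-219a-2-3p (1.0) and mmu-miR-124-3p (1.0), and WT mouse 2 for mmu-miR-1a-3p (0.806).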

How the results depend on the processing

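Over all miRNAs the count that passed moved from 31 to 50 with DESeq2, 7 with limma-voom, 0 in the files of the shorter list, 18 in the second run alone, 0 without WT mice 1 and 3, 84 with no filter beyond 1 read, and 5 to 46 when each mouse was left out. The count of 0 muscle and nerve miRNAs became 1 without the file-set term (miR-133c, log2 fold change 4.85). It was 0 to 1 when each mouse was left out, the 1 being miR-204-5p (4.03) without PiZ mouse 5. With no filter beyond 1 read it was 7, all of them chosen for their height in PiZ mouse 4. The fold change of miR-219a-1-3p turned from -0.28 to 0.0095 in the second run alone, 0.015 without WT mice 1 and 3, and ran from -0.65 to 0.017 when each mouse was left out, the highest without WT mouse 1. That of miR-219a-5p ran from -0.27 (without PiZ mouse 1) to 0.90. Over the fold changes of the 10 miRNAs under these alternatives, 200 kept direction and side of the threshold, 4 turned, 9 came to pass (7 of them with no filter beyond 1 read) and 6, in DESeq2, had no p; the cause was not tested. Reads were found in 70 of 120 pairs of mouse and miRNA, 62 in run 1 alone and 56 in run 2. Depth limits the shallow WT mice 1 to 3 most. No paired analysis was possible because the replicate numbers in the labels mark technical runs of a library, which were summed.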
